A study of Homo sapiens with 6 samples.

Results

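The genes described here encode the protein folding and disposal machinery of the endoplasmic reticulum (ER), the compartment in which secreted and membrane proteins are made. They were chosen by name, from a list of 40 chaperones, folding enzymes, degradation factors, translocation proteins and stress sensors, and 38 of the 40 were among the 12385 genes of the expression table. DERL3 and ERO1B were not in the table, which lists only genes with a mean of at least 0.5 FPKM (fragments per kilobase of transcript and per size of the library in mapped fragments) in 1 group or both. The 38 genes fell into 22 folding genes (11 chaperones and cofactors, 3 genes of the lectin chaperone cycle, 8 isomerases and oxidases), 10 degradation genes, 3 translocation genes and 3 sensors and factors.

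RNA was sequenced from cells of MKN-74, an established line of human gastric cancer with an epithelial type, that carried either a HOXD9 lentivirus (LV-HOXD9, 3 libraries) or the empty vector (LV-Vector, 3 libraries). Both groups were stable lines selected with 10 μg/ml puromycin for more than 14 days, and the vector of both carried a Ubi promoter and a green fluorescent protein and puromycin resistance cassette. HOXD9, a homeobox transcription factor, was at 26.6, 26.4 and 31.3 FPKM in LV-HOXD9 and at 0, 0.0413 and 0.0309 FPKM in LV-Vector, and RNA of the insert and of the endogenous gene could not be told apart. The libraries are labelled as biological replicates, but the labels do not say whether they came from separate transductions, so the p-values below measure the spread between these libraries, which may be technical.

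All 6 epithelial markers examined were listed, with a summed level of 954 to 978 FPKM in LV-HOXD9 and 802 to 909 FPKM in LV-Vector. Of the fibroblast markers 1 of 5 was listed (COL1A1, 0.924 to 1.05 FPKM in LV-HOXD9 and 1.0 to 1.22 FPKM in LV-Vector), of the immune markers 1 of 4 (CD68, 1.37 to 1.49 FPKM in LV-HOXD9 and 1.35 to 2.32 FPKM in LV-Vector), and of the endothelial markers 0 of 3. The FPKM of all genes summed to between 256588 and 270501 in LV-HOXD9 and between 242093 and 257015 in LV-Vector, and the number of reads behind them is unknown. The least alike libraries were LV-HOXD9 3 and LV-Vector 2, with a Pearson correlation of log2(FPKM + 1) across genes of 0.973, against 0.979 to 0.989 for the other pairs.

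Proteins enter the ER through the SEC61 channel and fold with the help of the chaperone HSPA5 (BiP), its relatives and J-domain cofactors, the lectins CALR and CANX, which hold glycoproteins, and the disulfide isomerases. Proteins that fail to fold are trimmed by EDEM proteins, recognised by OS9 and SEL1L, moved back to the cytosol and ubiquitinated by SYVN1 (HRD1), a route named ER-associated degradation. When misfolded proteins build up, the sensors ERN1 (IRE1), ATF6 and EIF2AK3 (PERK) start the unfolded protein response. ATF6 and the spliced form of XBP1 switch on chaperone and degradation genes, whereas PERK slows translation through eIF2 and raises ATF4 and DDIT3 (CHOP). Gastric epithelial cells secrete mucins and digestive enzymes and depend on this machinery.

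Promoter sites of the ER stress response, found in some of the genes described below, and the RNA segment that IRE1 removes are shown first. The ER stress response element (ERSE) is CCAAT, then any 9 bases, then CCACG, and ERSE-II is ATTGG, then any 1 base, then CCACG. Both strands were searched in RefSeq promoter windows (GRCh38.p14) reaching from 250 bases before to 50 bases after each start site. Windows were given for 37 of the 40 genes, all but PDIA3, DERL1 and DERL3. An ERSE was found in 9 of these 37 genes (24.3%), beside 0.0916% of all 27305 genes and 0.0769% of their 35116 windows. An ERSE-II was found in 3 of 37 genes (8.11%), beside 0.0696% of all genes and 0.0541% of windows. The part shared by both elements, CCACG, was in 28 of 37 genes (75.7%), beside 42.1% of all genes and 38.1% of windows. The sites are written in the direction in which the element reads, with its fixed bases in capitals.
HSPA5: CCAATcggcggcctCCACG
HSP90B1, distal: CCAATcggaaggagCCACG
HSP90B1, proximal: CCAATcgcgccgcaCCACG
CALR: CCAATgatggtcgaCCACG
CANX: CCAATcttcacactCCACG
CRELD2: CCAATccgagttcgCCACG
PDIA6: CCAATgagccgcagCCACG
SERP1: CCAATtcgctgtctCCACG
XBP1: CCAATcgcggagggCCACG
SDF2L1: ATTGGtCCACG
HYOU1: ATTGGaCCACG
HERPUD1: ATTGGgCCACG

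The first base of the site, read along the gene, was 66 bases upstream of the start in HSPA5 (chr9:125241391-125241409, gene on the minus strand), 52 in XBP1 (chr22:28800603-28800621, minus strand), 225 in CALR (chr19:12938384-12938402, plus strand) and 188 in SDF2L1 (chr22:21642114-21642124, plus strand). HYOU1 held its site at both 79 and 185 bases upstream. ERO1B, not in the expression table, was the remaining gene with an ERSE. These are matches of letters, and binding was not measured.

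In XBP1, IRE1 cuts a segment of 26 bases out of the mature mRNA, which shifts the reading frame and gives the active factor. It is shown in capitals, flanked by the adjoining bases of the mRNA, as annotated for transcript XBP1-207 in GENCODE 29 (chr22:28796124-28796149 of GRCh38, minus strand).
XBP1 segment: agCACTCAGACTACGTGCACCTCTGCAGca
The annotation of XBP1-202 places the missing segment at chr22:28796122-28796147, and both placements leave the same joined sequence. XBP1-201, XBP1-203 and XBP1-204 contain the segment.

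None of the 38 genes passed the test between LV-HOXD9 and LV-Vector. The smallest adjusted p was 0.113 (limma on log2(FPKM + 1), Benjamini-Hochberg over 12385 genes). At an adjusted p under 0.05, 0 members were lower and 0 higher, beside 0.145% of all genes lower and 0.0565% higher. At an adjusted p under 0.1 the counts were also 0 and 0, beside 0.533% and 0.331% of all genes, and an ordinary linear model and limma with robust moderation gave 0 and 0 at 0.05 as well. At an unadjusted p under 0.05, 3 members were lower (7.89%, beside 11.9% of all genes) and 7 were higher (18.4%, beside 7.12% of all genes). The 3 libraries of each group did not overlap in 4 members that were lower (10.5%, beside 17.5% of all genes) and 7 that were higher (18.4%, beside 10.9% of all genes). The 95% intervals of the log2 fold changes lay between -0.65 and 0.49 for every member but SEC61A1, whose interval reached 1.27. Fold changes are on the log2(FPKM + 1) scale, which understates the change of low genes, and in bulk RNA fewer cells and less RNA per cell cannot be told apart.

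The members took 0.906%, 0.932% and 0.797% of the summed FPKM in the LV-HOXD9 libraries, and 0.878%, 0.898% and 0.862% in the LV-Vector libraries. The groups overlapped, and LV-HOXD9 3 was the lowest of the 6. The median log2 fold change was -0.04 over the 38 members (21 below 0 and 17 above, 44.7% above). Over all genes it was also -0.04 (7420 below 0 and 4965 above, 40.1% above), the background for the counts of direction given here. The median was 0.01 over the folding genes (11 below and 11 above), -0.07 over the degradation genes (6 below and 4 above), 0.13 over the translocation genes (1 below and 2 above) and -0.10 over the sensors (3 below). Leaving out each library in turn moved the median of all members between -0.05 and 0.05, which spans 0, and that of the folding genes between -0.01 and 0.06.

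**Figure D1:**
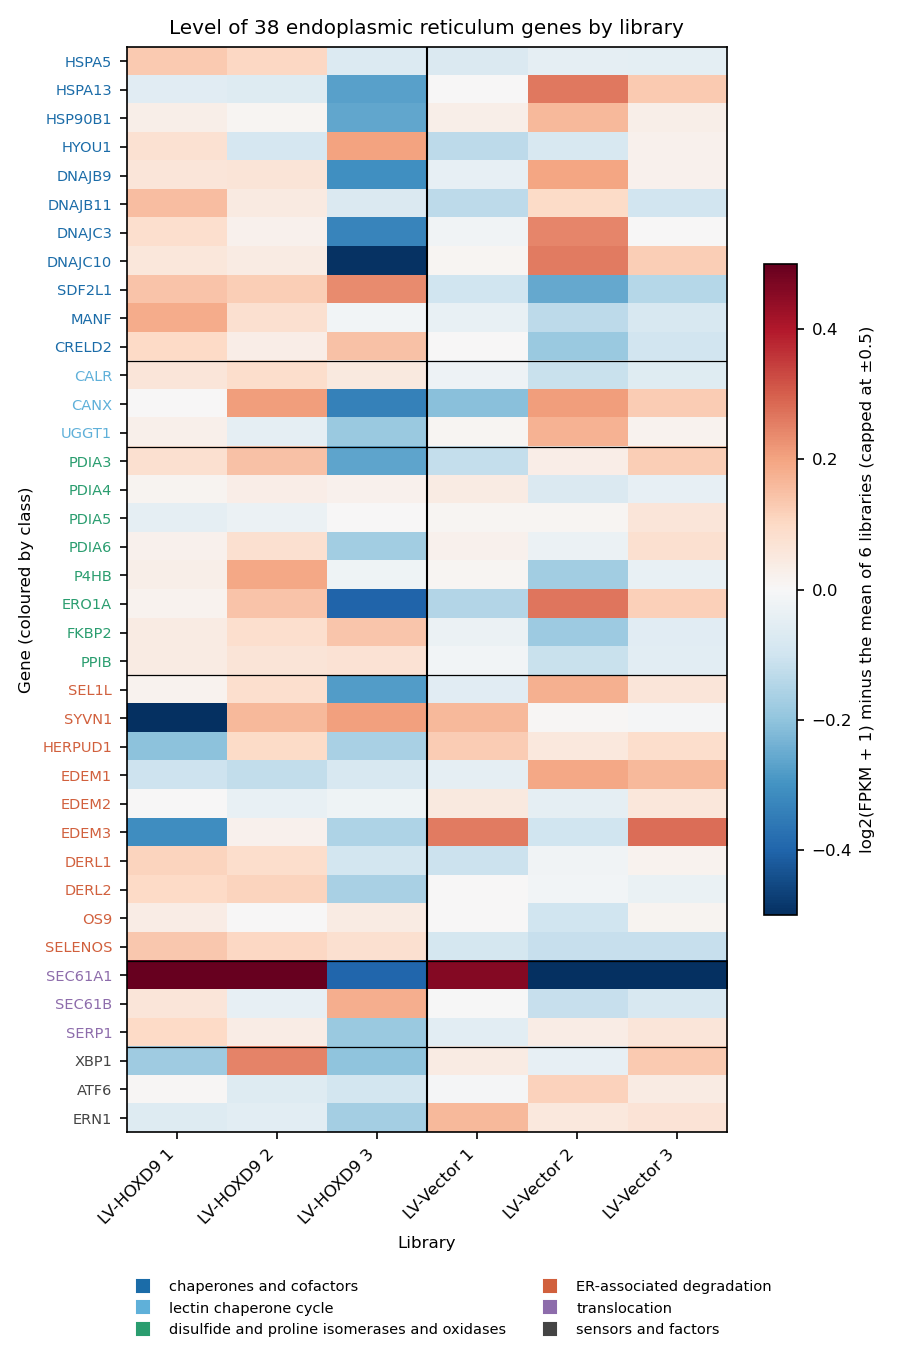
Heat map of the 38 genes (rows, coloured by class) in the 3 LV-HOXD9 libraries (left) and the 3 LV-Vector libraries (right). The colour is log2(FPKM + 1) minus the mean of the 6 libraries, capped at ±0.5. Most rows do not split by group, LV-HOXD9 3 is the lowest library for several chaperones such as DNAJC10 (2.60 FPKM), and SEC61A1 splits the libraries 3 and 3 across the groups.

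Among the chaperones, HSPA5, the main Hsp70 of the ER and the classical marker of its stress response, was at 279, 274 and 243 FPKM in LV-HOXD9 and at 242, 247 and 246 FPKM in LV-Vector. The groups overlapped because LV-HOXD9 3 lay among the LV-Vector libraries, while the other two LV-HOXD9 libraries lay above all 3. Its log2 fold change was 0.11 (SE 0.063, adjusted p = 0.361 from limma), and ran from -0.02 after quantile normalization to 0.20 with the trends described below removed. The adjusted p ranged from 0.049 to 0.945 over the alternatives. HSPA5 spans chr9:127997132-128003609 on the minus strand of GRCh37, the build of the deposited coordinates. HSPA13, another Hsp70 of the ER, was at 5.88, 5.86 and 4.93 FPKM in LV-HOXD9 and at 6.17, 7.60 and 6.84 FPKM in LV-Vector. All 3 LV-HOXD9 libraries were below all 3 LV-Vector libraries, with a log2 fold change of -0.26 (SE 0.099, unadjusted p = 0.0327, adjusted p = 0.236 from limma), or -0.07 with the trends of each library with GC content and transcript length taken out.

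DNAJC10 (ERdj5), a J-domain cofactor that also reduces disulfides of proteins bound for degradation, was at 4.26, 4.21 and 2.60 FPKM in LV-HOXD9 and at 4.10, 5.07 and 4.52 FPKM in LV-Vector. The groups overlapped, and the value of LV-HOXD9 3 was the lowest. The log2 fold change was -0.26 (SE 0.161, adjusted p = 0.388 from limma), the lowest among the chaperones, and it was 0.05 once trends with GC content and transcript length had been taken out. The cofactors DNAJB9, DNAJB11 and DNAJC3, the Hsp90 of the ER HSP90B1 (GRP94) and the nucleotide exchange factor HYOU1 had log2 fold changes between -0.15 and 0.13, and their groups overlapped. HYOU1, the gene with 2 ERSE-II sites, was at 58.3, 52.2 and 63.7 FPKM in LV-HOXD9 and at 50.4, 52.3 and 56.1 FPKM in LV-Vector.

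SDF2L1, a partner of HSPA5 and its J-domain cofactors, carried the ERSE-II shown above and had the smallest p of all members. Its level was 50.8, 50.1 and 54.4 FPKM in LV-HOXD9 and 42.8, 38.3 and 41.6 FPKM in LV-Vector, so every LV-HOXD9 library was above every LV-Vector library. The log2 fold change was 0.33 (SE 0.064, 95% interval 0.18 to 0.49, unadjusted p = 0.00133, adjusted p = 0.113 from limma). The adjusted p ranged from 0.0342 to 0.328 over the alternatives. The exact permutation test over libraries gave p = 0.10, two-sided, the smallest that 3 libraries against 3 can give, and this holds for every member whose groups do not overlap. SDF2L1 spans chr22:21996550-21998587 (GRCh37, plus strand) and had the most GC-rich leading transcript of the members (65.5%).

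MANF and CRELD2 are secreted ER stress proteins, and MANF binds HSPA5. MANF was at 44.2, 41.1 and 38.4 FPKM in LV-HOXD9 and at 37.8, 35.3 and 36.6 FPKM in LV-Vector, with a log2 fold change of 0.17 (SE 0.067, unadjusted p = 0.042, adjusted p = 0.252 from limma). CRELD2 was at 14.1, 13.4 and 14.6 FPKM in LV-HOXD9 and at 13.1, 11.4 and 12.2 FPKM in LV-Vector, with a log2 fold change of 0.19 (SE 0.071, unadjusted p = 0.0356, adjusted p = 0.239 from limma). In both genes every LV-HOXD9 library was above every LV-Vector library, by a narrow margin of 38.4 against 37.8 FPKM in MANF and 13.4 against 13.1 FPKM in CRELD2. On a TPM scale the log2 fold changes were 0.11 in MANF and 0.13 in CRELD2, and with the trends removed 0.11 in each. CRELD2-201, the main transcript of CRELD2, had a log2 fold change of -0.21 and CRELD2-203 one of 0.96, both with overlap of the groups.

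CALR (calreticulin), the soluble lectin chaperone and calcium store of the ER, was the most abundant member per length. It was at 431, 439 and 428 FPKM in LV-HOXD9 and at 406, 383 and 397 FPKM in LV-Vector. The groups did not overlap, and the spread was small, with a coefficient of variation of 1.24% in LV-HOXD9 and 3.03% in LV-Vector. The log2 fold change was 0.13 (SE 0.047, unadjusted p = 0.027, adjusted p = 0.222 from limma), but 0.03 after quantile normalization and 0.07 on a TPM scale. CALR spans chr19:13049392-13055303 (GRCh37, plus strand).

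UGGT1, which adds glucose back to misfolded glycoproteins so that CALR and CANX bind them again, was at 15.8, 15.0 and 13.5 FPKM in LV-HOXD9 and at 15.6, 17.6 and 15.7 FPKM in LV-Vector. Its groups overlapped, and the log2 fold change of -0.13 (SE 0.08, adjusted p = 0.388 from limma) was 0.07 with the trends removed. CANX (calnexin), the membrane-bound lectin, was at 109, 126 and 85.8 FPKM in LV-HOXD9 and at 94.1, 126 and 119 FPKM in LV-Vector, with full overlap of the groups.

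The isomerases and oxidases form and shuffle disulfide bonds or turn proline bonds. PDIA4 (ERp72) had the highest level among them, at 209, 212 and 210 FPKM in LV-HOXD9 and at 213, 197 and 201 FPKM in LV-Vector. The groups overlapped, and the log2 fold change was 0.05 (SE 0.049, adjusted p = 0.606 from limma), which became -0.02 on a TPM scale and -0.07 after quantile normalization. PPIB (cyclophilin B), a proline isomerase, was at 185, 188 and 189 FPKM in LV-HOXD9 and at 178, 166 and 173 FPKM in LV-Vector. Its groups did not overlap, with a log2 fold change of 0.12 (SE 0.049, unadjusted p = 0.0439, adjusted p = 0.254 from limma). That value was 0.001 after quantile normalization, 0.06 on a TPM scale and 0.05 with the trends removed.

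FKBP2, a proline isomerase of the FK506-binding family, was at 28.2, 29.1 and 30.2 FPKM in LV-HOXD9 and at 26.8, 24 and 26.3 FPKM in LV-Vector. The groups did not overlap, and the log2 fold change was 0.18 (SE 0.064, unadjusted p = 0.0276, adjusted p = 0.222 from limma). ERO1A, the oxidase that recharges the disulfide isomerases, was at 20.1, 22 and 14.8 FPKM in LV-HOXD9 and at 17.8, 24.1 and 21.6 FPKM in LV-Vector. Its groups overlapped, and the log2 fold change was -0.16 (SE 0.163, adjusted p = 0.601 from limma), the lowest of this class. Without LV-HOXD9 3 it was 0.001.

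The other isomerases, PDIA3, PDIA5, PDIA6 and P4HB, had log2 fold changes between -0.05 and 0.13. PDIA5 was at 17.4, 17.6 and 18.0 FPKM in LV-HOXD9 and at 18.1, 18.1 and 18.8 FPKM in LV-Vector. Its groups did not overlap by a margin of 18.0 against 18.1 FPKM, and its log2 fold change was -0.05 (SE 0.054, adjusted p = 0.614 from limma).

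**Figure D2:**
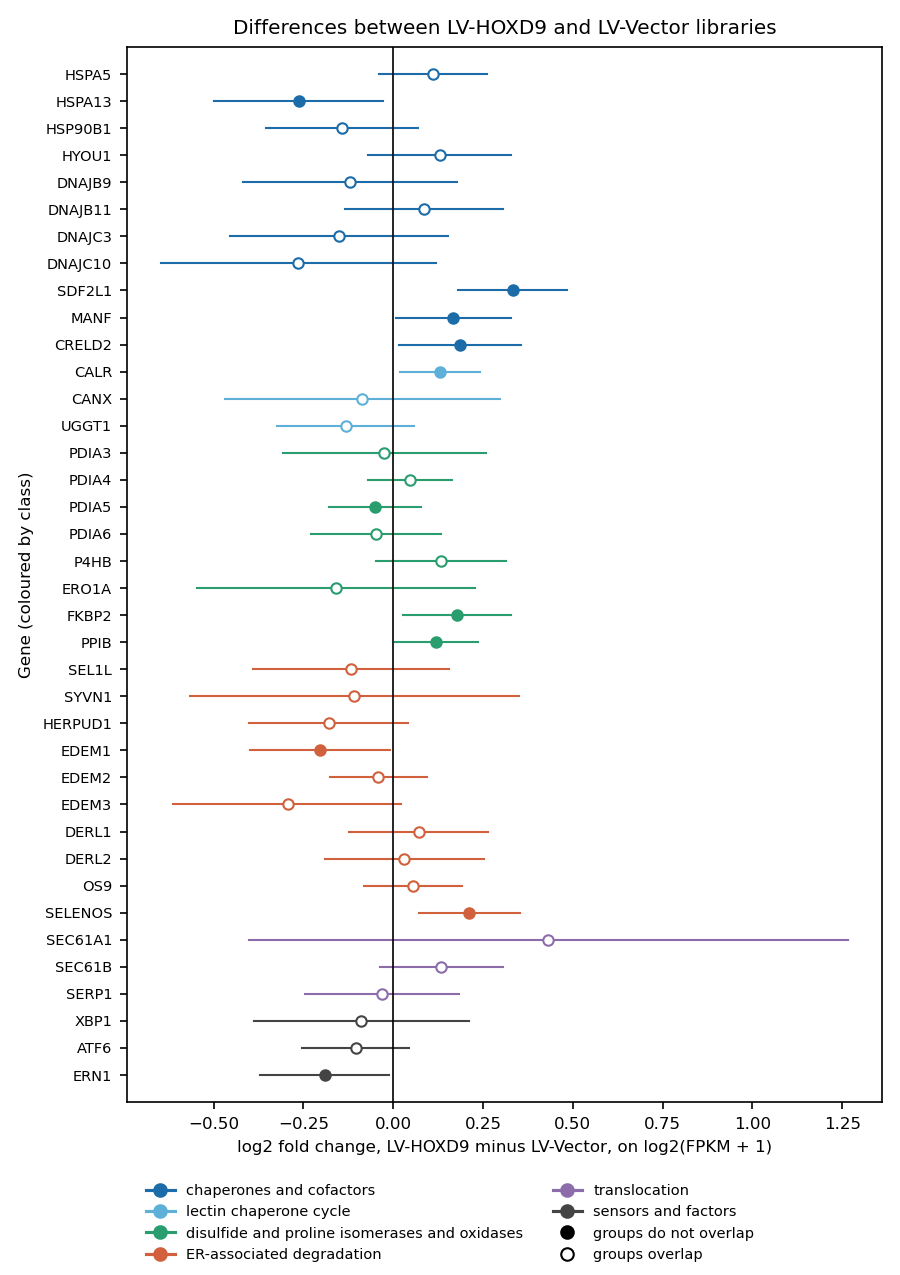
Log2 fold change (LV-HOXD9 minus LV-Vector, x axis) of each of the 38 genes (y axis, coloured by class) with its 95% interval from limma. Filled points mark the 11 genes whose 3 LV-HOXD9 and 3 LV-Vector libraries do not overlap, 7 above 0 and 4 below, and SEC61A1 has the widest interval, reaching 1.27.

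The degradation genes were mostly at low levels, with a median of 7.54 FPKM against 42.6 FPKM for the folding genes. SELENOS, a selenoprotein that helps to draw misfolded proteins into the cytosol, was at 8.18, 7.97 and 7.83 FPKM in LV-HOXD9 and at 6.86, 6.71 and 6.72 FPKM in LV-Vector. The groups lay well apart beside their spread, with a coefficient of variation of 2.26% in LV-HOXD9 and 1.26% in LV-Vector. The log2 fold change was 0.21 (SE 0.059, 95% interval 0.07 to 0.35, unadjusted p = 0.00941, adjusted p = 0.179 from limma), and the adjusted p ranged from 0.0649 to 0.386 over the alternatives. SELENOS spans chr15:101811022-101817705 (GRCh37, minus strand).

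EDEM1 and EDEM3, mannosidase-like proteins that mark glycoproteins for disposal, were on the other side. EDEM1 was at 6.42, 6.31 and 6.53 FPKM in LV-HOXD9 and at 6.71, 8.10 and 7.90 FPKM in LV-Vector. Its groups did not overlap, with a log2 fold change of -0.20 (SE 0.082, unadjusted p = 0.0429, adjusted p = 0.254 from limma), or -0.06 with the trends removed. EDEM3 was at 3.98, 5.28 and 4.56 FPKM in LV-HOXD9 and at 6.40, 4.77 and 6.51 FPKM in LV-Vector. Its groups overlapped through LV-HOXD9 2 and LV-Vector 2, and the log2 fold change was -0.29 (SE 0.134, adjusted p = 0.286 from limma), or -0.07 with the trends removed.

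OS9, a lectin that brings glycoproteins to the SYVN1 complex, had the highest level of this class, at 24.4, 23.8 and 24.5 FPKM in LV-HOXD9 and at 23.8, 22.1 and 24 FPKM in LV-Vector. The groups overlapped, and the log2 fold change was 0.05 (SE 0.057, adjusted p = 0.609 from limma), or -0.01 on a TPM scale. HERPUD1, a scaffold of the same complex and a carrier of ERSE-II, was at 6.48, 8.22 and 6.71 FPKM in LV-HOXD9 and at 8.42, 7.94 and 8.17 FPKM in LV-Vector. SYVN1, the ubiquitin ligase, was at 7.42, 12.6 and 13.0 FPKM in LV-HOXD9 and at 12.6, 11.2 and 11.1 FPKM in LV-Vector. In both genes the groups overlapped, in SYVN1 with LV-HOXD9 1 far below the other 5 libraries. The remaining 4, SEL1L, EDEM2, DERL1 and DERL2, had log2 fold changes between -0.12 and 0.07, and their groups overlapped.

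Of the translocation genes, SEC61A1, the pore-forming subunit of the channel, was at 72.3, 73.0 and 38 FPKM in LV-HOXD9 and at 69.6, 33.2 and 34.7 FPKM in LV-Vector. These values formed a high set of 3 libraries (LV-HOXD9 1, LV-HOXD9 2 and LV-Vector 1) and a low set of 3 (LV-HOXD9 3, LV-Vector 2 and LV-Vector 3) that crossed the groups. The log2 fold change of 0.43 therefore had an SE of 0.351 (adjusted p = 0.509 from limma). It was 0.74 without LV-HOXD9 3 and 0.77 without LV-Vector 1, and between 0.25 and 0.28 without any of the other libraries. SEC61A1 was the only member whose libraries differed by more than 2-fold within a group.

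SEC61B, a small subunit of the channel, was at 59.3, 55.2 and 64.7 FPKM in LV-HOXD9 and at 56.8, 52.4 and 53.7 FPKM in LV-Vector, with a log2 fold change of 0.13 (SE 0.072, adjusted p = 0.34 from limma). Its mean over the 6 libraries was 57.0 FPKM, against 53.5 FPKM for SEC61A1, whose LV-HOXD9 mean was the higher of the pair (61.1 FPKM, against 59.7 FPKM for SEC61B). SERP1 (RAMP4), which stabilises membrane proteins during stress, was at 12.9, 12.3 and 10.4 FPKM in LV-HOXD9 and at 11.5, 12.3 and 12.5 FPKM in LV-Vector. The groups overlapped in both genes, and the log2 fold change of SERP1 was -0.03 (SE 0.09, adjusted p = 0.86 from limma).

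Among the sensors and factors, ERN1 (IRE1), the membrane kinase and nuclease that splices XBP1, had the lowest level of all members, at 1.28, 1.30 and 1.12 FPKM in LV-HOXD9 and at 1.67, 1.47 and 1.5 FPKM in LV-Vector. The groups did not overlap, and the log2 fold change was -0.19 (SE 0.076, unadjusted p = 0.0399, adjusted p = 0.249 from limma), or -0.08 with the trends removed and -0.11 after quantile normalization. ATF6, the sensor that is cut in the Golgi to free its transcription factor, was at 14.3, 13.6 and 13.3 FPKM in LV-HOXD9 and at 14.2, 15.5 and 14.7 FPKM in LV-Vector. Its groups overlapped by 1 library of each, and the log2 fold change of -0.10 (SE 0.063, adjusted p = 0.387 from limma) was 0.11 with the trends removed.

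XBP1 was at 41.3, 55.8 and 40.7 FPKM in LV-HOXD9 and at 48.3, 45.5 and 51.5 FPKM in LV-Vector. The groups overlapped because LV-HOXD9 2 was the highest of the 6 libraries, and the log2 fold change was -0.09 (SE 0.126, adjusted p = 0.708 from limma), or -0.23 without LV-HOXD9 2 and between -0.01 and -0.13 without any other library. The transcript table split this level over 5 transcripts, whose FPKM is counted per transcript and need not sum to that of the gene. XBP1-202, which lacks the 26 bases, was at 31.6, 31.9 and 33.1 FPKM in LV-HOXD9 and at 50.7, 39.8 and 49.8 FPKM in LV-Vector. The groups did not overlap, with a log2 fold change of -0.52 (SE 0.115, unadjusted p = 0.00449, adjusted p = 0.52 from limma over 40304 transcripts).

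XBP1-207, the other transcript without the segment, went the other way, at 10.4, 10.2 and 9.38 FPKM in LV-HOXD9 and at 6.13, 2.53 and 5.58 FPKM in LV-Vector. It was chosen after its values were seen. Its log2 fold change was 1.00 (SE 0.287, unadjusted p = 0.0139, adjusted p = 0.684 from limma). XBP1-204, the main transcript with the segment, was at 34.9, 62.0 and 30.5 FPKM in LV-HOXD9 and at 38.4, 40.5 and 44.8 FPKM in LV-Vector, so LV-HOXD9 held both its highest and its lowest values.

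The transcripts without the segment summed to 42.0, 42.1 and 42.5 FPKM in LV-HOXD9 and to 56.9, 42.4 and 55.4 FPKM in LV-Vector (two-sided exact permutation p = 0.20, n = 3 each). Their share of all XBP1 transcript FPKM was 51.9%, 39.0% and 52.9% in LV-HOXD9 and 57.1%, 46.6% and 52.5% in LV-Vector. The mean share was 48.0% ± 7.76 in LV-HOXD9 and 52.1% ± 5.25 in LV-Vector (SD, n = 3 each, two-sided exact permutation p = 0.60). This share was estimated by the transcript assembly, and reads across the splice site were not counted.

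**Figure D3:**
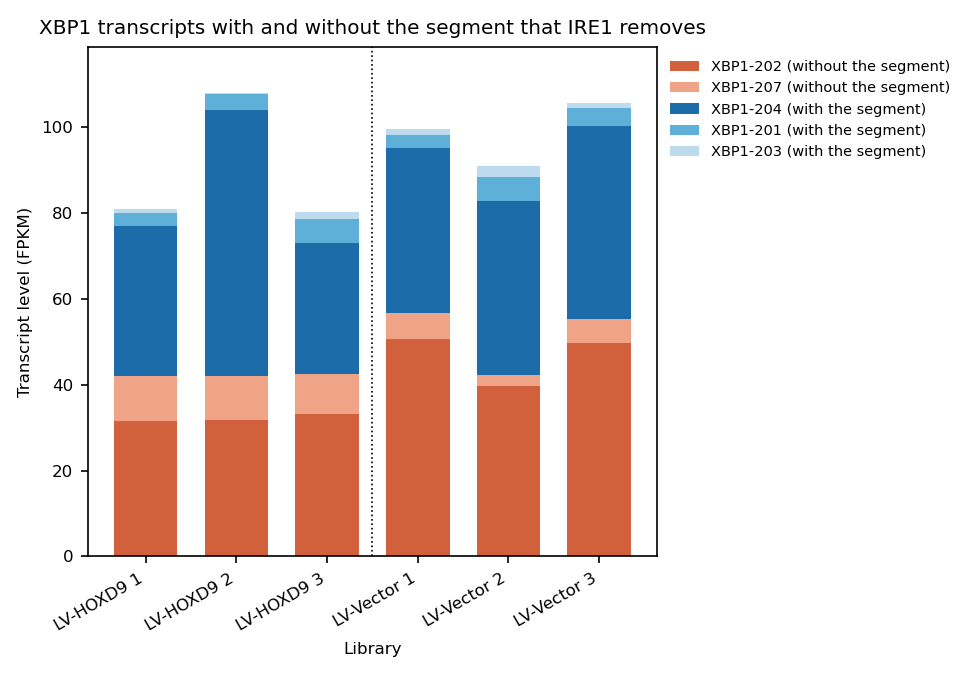
Stacked bars of the FPKM of the 5 XBP1 transcripts (y axis) in the 3 LV-HOXD9 libraries (left) and the 3 LV-Vector libraries (right). Red shades lack the segment that IRE1 removes and blue shades contain it. The red part is 42.0 to 42.5 FPKM in LV-HOXD9 and 42.4 to 56.9 FPKM in LV-Vector, and the blue part is tallest in LV-HOXD9 2.

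The transcript table listed 136 transcripts of the 38 members, 1 for each of 9 genes and up to 11 for a gene. Of these, 0 passed an adjusted p under 0.05 (limma), beside 0.0992% of all 40304 transcripts in both directions together. At an unadjusted p under 0.05, 3 were lower (2.21%, beside 3.77% of all transcripts) and 5 were higher (3.68%, beside 3.22% of all transcripts). The 3 lower were XBP1-202, DNAJC10-208 and DNAJC10-210, and the 5 higher were SDF2L1-201, CALR-201, PPIB-201, XBP1-207 and HYOU1-221. SDF2L1-201, the sole listed transcript of its gene, was at 63.9, 63.1 and 68.6 FPKM in LV-HOXD9 and at 53.4, 47.4 and 52.1 FPKM in LV-Vector. DNAJC10-210 was at 1.01, 1.36 and 0.988 FPKM in LV-HOXD9 and at 1.48, 2.22 and 2.39 FPKM in LV-Vector. In both transcripts the groups did not overlap. CALR-201 was at 568, 574 and 573 FPKM in LV-HOXD9 and at 535, 510 and 529 FPKM in LV-Vector, and PPIB-201 was at 322, 328 and 330 FPKM in LV-HOXD9 and at 311, 289 and 301 FPKM in LV-Vector. DNAJC10-201, the main transcript of its gene, was at 4.21, 4.07 and 2.38 FPKM in LV-HOXD9 and at 3.85, 4.57 and 4.01 FPKM in LV-Vector, with overlap of the groups. Among the named genes with 2 or more listed transcripts, 24 transcripts of 15 genes held at least 20% of the transcript FPKM in a group. Of these, 4 had an unadjusted p under 0.05 (XBP1-202, DNAJC10-210, CALR-201 and PPIB-201), and the other 20 had log2 fold changes between -1.74 and 1.21, 9 below 0 and 11 above, with overlap of the groups in 19.

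The leading transcript, that with the highest mean over the 6 libraries, differed by more than 2-fold within a group in 12 of 38 members, against 1 of 38 in the gene table. The shares of all genes that met this rule are not given, so the counts cannot be read as particular to the members. Of the 12 members, 11 were among the 29 genes with 2 or more listed transcripts, and the other was UGGT1, whose sole listed transcript was at 4.89, 14.4 and 13.0 FPKM in LV-HOXD9 and at 15.0, 16.6 and 15.2 FPKM in LV-Vector. CANX-201 was at 155, 32.1 and 121 FPKM in LV-HOXD9 and at 133, 29.9 and 28.7 FPKM in LV-Vector. CANX-202 was at 1.53, 152 and 1.32 FPKM in LV-HOXD9 and at 1.48, 154 and 145 FPKM in LV-Vector. The FPKM assigned to CANX-201 and CANX-202 thus shifted library by library, in both groups, with CANX-201 never under 28.7 FPKM. The gene level of CANX varied by 18.8% in LV-HOXD9 and 14.8% in LV-Vector (coefficient of variation). These transcript levels were estimated by the assembly, reads across splice sites were not counted, and the cause of the shifts was not tested.

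The log2 fold changes moved with base composition. Across 12054 genes, the log2 fold change and the GC content of the leading transcript had a Spearman rho of 0.43, across the 38 members 0.685, across the 22 folding genes 0.939 and across the 10 degradation genes 0.382. These are descriptions over genes that share the same 6 libraries. The 15 members with a GC content of at least 50% had a median log2 fold change of 0.13 (11 above 0 and 4 below), and the 23 under 50% had a median of -0.10 (6 above and 17 below). HSPA13, with the lowest GC content (34.9%), and SDF2L1, with the highest (65.5%), stood near the low and the high end of the fold changes.

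The relation with GC content differed between libraries. Each library was set against the mean of the 6 libraries, gene by gene, and over the members this difference had a Spearman rho with GC content of 0.784 in LV-HOXD9 3, of -0.773 in LV-Vector 2 and of -0.588 in LV-Vector 3. It was between 0.118 and 0.141 in the remaining libraries. Over all genes, rho was 0.659 in LV-HOXD9 3 and -0.601 in LV-Vector 2. With these 2 libraries left out, the median log2 fold change of the members was 0.06. When each library's trends with both GC content and transcript length were taken out by loess, rho was 0.02 over all genes, 0.09 over the members, 0.58 over the folding genes and -0.43 over the degradation genes. The median was then 0.07 both for the GC-rich and for the GC-poor members.

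After this removal, 0 members were lower at an adjusted p under 0.05 (beside 0.937% of all genes) and 2 were higher (beside 1.09% of all genes). These were HSPA5 (log2 fold change 0.20, adjusted p = 0.049 from limma) and SDF2L1 (0.27, adjusted p = 0.0342). SELENOS was at 0.22 with an adjusted p of 0.0649. Of the 21 members below 0 in the deposited values, 9 were above 0 after it (DNAJC3, DNAJC10, CANX, UGGT1, PDIA3, ERO1A, SEL1L, SERP1 and ATF6), and none turned the other way. The 3 members lower at an unadjusted p under 0.05 and EDEM3 lay nearer to 0: HSPA13 was at -0.07, EDEM1 at -0.06, EDEM3 at -0.07 and ERN1 at -0.08. Most members higher by that rule also lay nearer to 0. MANF, CRELD2 and FKBP2 were at 0.11, CALR at 0.09 and PPIB at 0.05, and SDF2L1 moved from 0.33 to 0.27. SELENOS stayed near its deposited value of 0.21. The removal assumes that trends common to all genes are not part of the difference between groups, which was not tested.

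**Figure D4:**
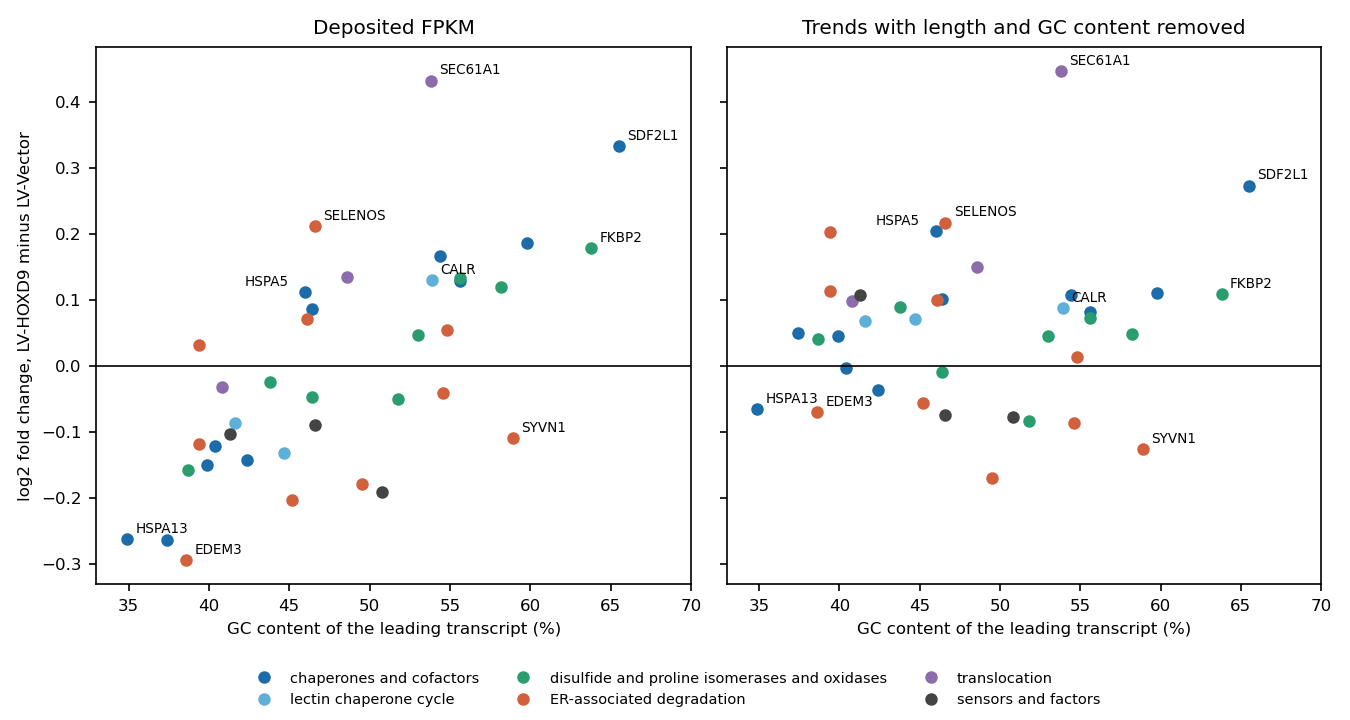
Log2 fold change (LV-HOXD9 minus LV-Vector, y axis) of the 38 genes against the GC content of their leading transcript (x axis, %), from the deposited FPKM (left panel) and with the trends of each library removed (right panel). On the left the folding genes, in blue and green, climb from HSPA13 at -0.26 to SDF2L1 at 0.33, and on the right most of them lie between -0.10 and 0.11.

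Other rules of calling added little. At an unadjusted p under 0.05 from an ordinary linear model with a fold of more than 1.2 in either direction, 0 members were lower (beside 4.6% of all genes) and 1 was higher, SDF2L1 (2.63%, beside 1.94% of all genes).

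Genes with an ERSE or ERSE-II were set beside those without. The 11 measured carriers of either element had a median log2 fold change of -0.03 (5 above 0 and 6 below) and a median level of 55.5 FPKM, and the 25 measured genes with neither had a median of -0.05 (11 above and 14 below) and a level of 15.5 FPKM. The carriers thus included both SDF2L1 at 0.33 and HERPUD1 at -0.18. With the trends removed the medians were 0.08 for carriers and 0.05 for the others.

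Other genes of the same pathways were examined as lists. Of 30 other folding genes, such as further isomerases and glucosidases, 27 were in the table, 0 passed limma at an adjusted p under 0.05 in either direction (1 lower and 1 higher at an unadjusted p under 0.05, the rule met by 11.9% and 7.12% of all genes), and their median log2 fold change was 0.03. Of 24 other degradation genes, 24 were in the table and 0 passed (4 lower and 3 higher unadjusted), with a median of -0.04. Of 26 translocon, signal peptidase and N-glycosylation genes, 25 were in the table and 0 passed (0 lower and 2 higher unadjusted), with a median of 0.05. Of 12 other sensors and membrane factors, all were in the table and 0 passed (2 lower and 2 higher unadjusted), with a median of 0.03.

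Of 10 genes of the PERK branch, 9 were in the table, 2 were lower at an adjusted p under 0.05 (limma, beside 0.145% of all genes) and 0 were higher. At an unadjusted p under 0.05, 6 were lower (CHAC1, SESN2, ATF4, DDIT3, CEBPB and ASNS) and 1 was higher (ATF3), and the median log2 fold change was -0.54 (7 below 0 and 2 above). This list was picked with these results known, and its difference from the folding genes was not tested. The list bears the name of PERK, but PERK activity was not measured. Whether PERK lies behind these values was not tested. CHAC1, which degrades glutathione, was at 7.96, 11.5 and 7.78 FPKM in LV-HOXD9 and at 33.8, 30.7 and 34.4 FPKM in LV-Vector (log2 fold change -1.77, SE 0.14, adjusted p = 0.0136 from limma). SESN2, an inhibitor of mTORC1, was at 18.1, 17.8 and 19.2 FPKM in LV-HOXD9 and at 28.4, 27.2 and 27.3 FPKM in LV-Vector (log2 fold change -0.56, SE 0.057, adjusted p = 0.0287 from limma). Both fell in LV-HOXD9 without overlap of the groups.

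ATF4, the factor translated when eIF2 is phosphorylated, was at 119, 120 and 119 FPKM in LV-HOXD9 and at 158, 150 and 162 FPKM in LV-Vector, with a log2 fold change of -0.39 (SE 0.05, adjusted p = 0.0502 from limma). DDIT3 was at 4.44, 5.30 and 4.31 FPKM in LV-HOXD9 and at 9.06, 8.09 and 11.0 FPKM in LV-Vector, with a log2 fold change of -0.86 (SE 0.121, adjusted p = 0.0581 from limma). Neither gene passed, although the groups did not overlap in either. ATF3, a stress-induced repressor, was at 4.47, 4.56 and 5.21 FPKM in LV-HOXD9 and at 2.91, 4.64 and 2.40 FPKM in LV-Vector. It was named after its values were seen, its groups overlapped, and its log2 fold change was 0.44 (SE 0.182, unadjusted p = 0.0459, adjusted p = 0.257 from limma). EIF2AK3, the PERK sensor itself, was at 4.53, 4.46 and 3.32 FPKM in LV-HOXD9 and at 3.57, 4.13 and 4.67 FPKM in LV-Vector, and its groups overlapped (log2 fold change -0.01, SE 0.128, adjusted p = 0.976 from limma).

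**Figure D5:**
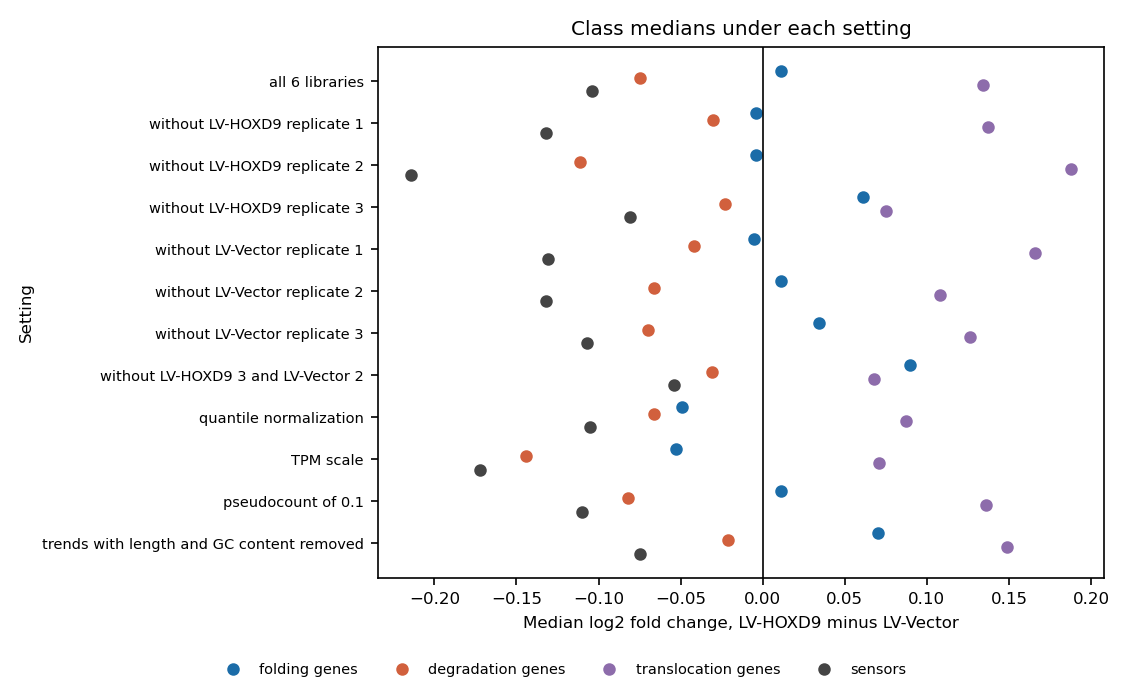
Median log2 fold change (LV-HOXD9 minus LV-Vector, x axis) of the folding, degradation and translocation genes and the sensors under each setting (y axis), from all 6 libraries at the top to the removal of trends at the bottom. The folding genes lie between -0.05 and 0.09, on both sides of 0, the degradation genes and sensors are below 0 in every setting drawn, and the translocation genes are above 0. The median of all genes, not drawn, was also below 0 in several settings. It was -0.044 from all 6 libraries, -0.113 on a TPM scale, -0.02 without LV-HOXD9 3 and LV-Vector 2, and -0.053 to -0.033 without 1 library. It was 0.002 after quantile normalization and 0.008 with trends removed.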

How the data were processed

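The authors' deposited tables hold FPKM values of genes and transcripts, computed with Ballgown per the methods of the study. The submitters' processing notes name cutadapt, FastQC, HISAT2, StringTie and GRCh37, with no versions. No count of reads was used, so depth is unknown, and whether counting used strand is not stated in the labels or methods. Both tables had been limited to features that averaged 0.5 FPKM or more in at least 1 group.

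Values were compared as log2(FPKM + 1) with limma 3.58.1 (moderated variances with a trend) in R 4.3.3, over 12385 genes or 40304 transcripts, with Benjamini-Hochberg adjustment called at 0.05. Requiring a mean of 0.1 FPKM removed nothing. The code was tested on simulated data. GC content and length came from GENCODE 29 transcripts matched by identifier (97.3% of genes, all 38 members), and trends were removed by loess (span 0.5). They were those of the leading transcript, whose level differed by more than 2-fold within a group in 12 of the 38 members. For HERPUD1 it was HERPUD1-216, a processed transcript of 509 bases. Promoters came from RefSeq. Given with every library's value were members with an unadjusted p under 0.05, the most abundant of each class, the sensors, and the member with the highest and the lowest fold change of each class. HYOU1, CANX, PDIA5, P4HB, HERPUD1 and SYVN1 were added after their values were seen. Transcripts considered were those of these members, where at least 2 were listed, with 20% or more of the gene's transcript FPKM in either group (24 transcripts of 15 genes). Those with an unadjusted p under 0.05 were given with values, as were the main ones of XBP1 and DNAJC10, and the rest by their range. Other transcripts with values were chosen after these were seen. Members, lists and rules were chosen with earlier results of these data known.

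Alternatives were a pseudocount of 0.1 FPKM, a minimum mean of 1 FPKM, quantile normalization, a TPM scale, a replicate block, libraries left out, trends removed, an ordinary linear model and robust moderation. Python 3.11.15, pandas 2.3.3, scipy 1.17.1 and matplotlib 3.10.9 were used.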

Additional observations from a re-analysis of the deposited data

How the results depend on the processing

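No member passed an adjusted p under 0.05 in either direction under any alternative run, except with trends removed, where 2 members were higher. By the criterion of unadjusted p and fold, which uses no adjusted p, 1 member was higher. The 3 lower members at an unadjusted p under 0.05 became 1 with an ordinary linear model, quantile normalization, the replicate block or LV-HOXD9 3 and LV-Vector 2 both left out, 0 with trends removed, and 0 to 4 without 1 library (0 without LV-HOXD9 3 or LV-Vector 3). The 7 higher became 1 on a TPM scale, 4 with quantile normalization or the replicate block, and 2 to 8 without 1 library (2 without LV-Vector 2 or LV-Vector 3). The shares of all genes that met this unadjusted rule under the alternatives are not given. These changes in counts therefore cannot be read as particular to the members.

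The median log2 fold change of all members was 0.07 with trends removed, 0.057 with both libraries left out, and -0.054 to 0.047 without 1 library. That of the folding genes was -0.053 on a TPM scale, -0.049 with quantile normalization, 0.07 with trends removed, 0.09 with both libraries left out, and -0.005 to 0.061 without 1 library. That of the degradation genes was -0.144 on a TPM scale, -0.021 with trends removed, and -0.111 to -0.023 without 1 library. That of the sensors was -0.172 on a TPM scale, -0.054 with both left out, and -0.214 to -0.081 without 1 library. A TPM scale set the median of all genes at -0.113, against -0.044. That median was 0.002 with quantile normalization and 0.008 with trends removed. It was -0.02 with both libraries left out, and -0.053 to -0.033 without 1 library.

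Among the members named with every value, the direction turned for HSPA5 (-0.015) and PDIA4 (-0.071) with quantile normalization. On a TPM scale it turned for PDIA4 (-0.017) and OS9 (-0.008). With trends removed it turned for DNAJC10 (0.05), CANX (0.068), UGGT1 (0.071), ERO1A (0.04), SERP1 (0.098) and ATF6 (0.108). With both left out it turned for CANX (0.145), ERO1A (0.095) and SERP1 (0.068). Over all 38 members, 9 turned from below to above 0 with trends removed and 8 with both left out, and 2 and 3 turned from above to below 0 with quantile normalization and on a TPM scale. Without 1 library, SEC61A1 ranged from 0.247 to 0.77, XBP1 from -0.234 to -0.011, ERO1A ranged from -0.272 to 0.001, SERP1 from -0.09 to 0.055 and XBP1-204 from -0.325 to 0.174. CANX ranged from -0.211 to 0.062. SYVN1, at -0.109 (SE 0.193) with all 6 libraries, ranged from -0.238 to 0.128. None of these turned values passed the test, and the cause of the turns was not tested beyond the settings named. Another 352 values of single genes and transcripts kept their direction and side of the threshold.

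After group means were removed, r between libraries of the same number was -0.173, 0.168 and -0.00641, against -0.268 to 0.284 for the other pairs. With 3 libraries per group, these values cannot decide whether the numbers pair the libraries. With the replicate block, 0 members passed in either direction. Depth is unknown, so no counting limit can be given for low genes such as ERN1.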

Other observations

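SEC61A1 was at 69.6 FPKM or more in LV-HOXD9 1, LV-HOXD9 2 and LV-Vector 1, and CANX-201 was at 121 FPKM or more in LV-HOXD9 1, LV-HOXD9 3 and LV-Vector 1. Both sets of libraries crossed the groups, and the cause was not tested. P4HB-203, a transcript of the isomerase subunit P4HB, was at 87.9, 0 and 89.8 FPKM in LV-HOXD9 and at 86.7, 81.4 and 84.6 FPKM in LV-Vector, while the gene level of P4HB was 97.3, 109 and 93.9 FPKM in LV-HOXD9 and 95.8, 84.4 and 92.7 FPKM in LV-Vector. The library with the transcript listed at 0 therefore had the highest gene level. SYVN1-206 was at 3.86, 17.6 and 7.47 FPKM in LV-HOXD9 and at 12.9, 0.0235 and 0.348 FPKM in LV-Vector, and SYVN1-203 was at 6.46, 2.55 and 4.68 FPKM in LV-HOXD9 and at 6.55, 7.55 and 13.0 FPKM in LV-Vector. LV-HOXD9 2, the highest library in SYVN1-206, was the lowest in SYVN1-203. These transcripts were chosen after their values were seen.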
